A study of Mus musculus with 16 samples.

Results

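Transcripts of 5 genes that tie the plasma membrane to cortical actin were followed in 16 RNA-seq libraries of mouse 8-cell embryos. They were the ezrin family genes Ezr, Rdx and Msn, the scaffold gene Slc9a3r1 and the class I myosin gene Myo1c, taken by name from a table of 43437 genes. A library pooled 10 hybrid embryos (some 80 cells), and the labels name no transgene. All groups, the control included, were injected as zygotes with double-stranded RNA (dsRNA), an agent that lowers the transcript it matches. It was directed against GFP in the control, against Tfap2c (an AP-2 transcription factor), against Tead4 (a TEAD transcription factor and DNA-binding partner of YAP), or against both in the double knockdown. The 4 groups had 4 libraries apiece, a pair from each cross (A1 and A2, B1 and B2). Cross A had mothers of the C57BL/6J×CBA/J hybrid, and in cross B the mothers were C57BL/6J×DBA/2J. Fathers are labelled as hybrids of C57BL/6J and a DBA strain whose suffix changes from line to line, so the paternal strain is not used here. Separate matings or cultures behind the libraries are not stated. The p values therefore rest on the spread between these embryo pools, which may be technical, and cross may stand for a batch as well.

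Ezrin, radixin and moesin (the ERM proteins) bind membrane proteins through an amino-terminal FERM domain and actin filaments through their carboxy-terminal end. They are opened by the lipid PIP2 and by phosphorylation, and the open form supports microvilli. In the mouse embryo ezrin gathers at the outer surface of the blastomeres at the 8-cell stage, where the apical domain forms that sets the future trophectoderm apart. Slc9a3r1 encodes NHERF1 (also EBP50), a PDZ scaffold that binds the FERM domain of ERM proteins and membrane transporters and receptors. Myo1c encodes a single-headed myosin that links membranes to actin.

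On the mm10 build (RefSeq annotation of GRCm38.p6), Ezr (ENSMUSG00000052397) lies on the minus strand of chromosome 17 from 6738131 to 6782780. Rdx (ENSMUSG00000032050) lies on chromosome 9 from 52047150 to 52088738 and Msn (ENSMUSG00000031207) on chromosome X from 96096045 to 96168553. Slc9a3r1 (ENSMUSG00000020733) lies on chromosome 11 from 115163341 to 115181178 and Myo1c (ENSMUSG00000017774) on the same chromosome from 75650519 to 75674643. The last 4 are on the plus strand.

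Because the depleted proteins bind DNA, the 250 bases before each annotated start were read from RefSeq sequence of GRCm38.p6, in 8 windows for the 5 genes. A TEAD motif (GGAATG) and an AP-2 motif (GCCNNNGGC) were searched on both strands. The TEAD letters were in 0 of the 8 windows and in 12.6% of 32851 windows of this length before all annotated starts. The AP-2 letters were in the third of 3 Myo1c windows and in the Msn window, and in 13.7% of all windows. The windows shown are that of Ezr, whose transcript changed most, and those with a match. Each runs 5′ to 3′ on the gene's strand, with the AP-2 match in capitals. The match starts at -70 from the start site in Myo1c and at -82 in Msn. A match is a run of letters and not a measured binding site, and no binding was measured in these libraries.
Ezr, chr17:6782781-6783030, minus strand: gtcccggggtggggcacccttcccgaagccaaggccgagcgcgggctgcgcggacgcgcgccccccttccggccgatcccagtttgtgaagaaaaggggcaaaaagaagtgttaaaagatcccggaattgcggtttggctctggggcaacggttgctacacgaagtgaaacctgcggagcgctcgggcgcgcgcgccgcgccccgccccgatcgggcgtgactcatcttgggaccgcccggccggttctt
Myo1c, chr11:75655765-75656014, plus strand, inside the gene: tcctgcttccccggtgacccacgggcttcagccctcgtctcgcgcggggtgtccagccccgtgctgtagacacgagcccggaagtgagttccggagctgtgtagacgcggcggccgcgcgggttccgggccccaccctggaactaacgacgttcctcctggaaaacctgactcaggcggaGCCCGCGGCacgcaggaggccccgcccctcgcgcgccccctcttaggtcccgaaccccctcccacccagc
Msn, chrX:96095795-96096044, plus strand: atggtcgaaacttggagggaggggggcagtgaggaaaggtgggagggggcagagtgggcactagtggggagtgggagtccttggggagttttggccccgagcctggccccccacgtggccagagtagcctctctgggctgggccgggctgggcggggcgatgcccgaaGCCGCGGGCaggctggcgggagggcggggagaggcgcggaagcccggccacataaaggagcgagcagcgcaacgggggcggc

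Values are FPKM (fragments scaled to transcript length and to library size). Both targets were depleted in each library labelled with them. Tfap2c was at 44.3% of the control mean in the Tfap2c knockdown and at 45.3% in the double knockdown, and Tead4 was at 15.7% in the Tead4 knockdown and 19.5% in the double knockdown. With Tfap2c dsRNA alone, Tead4 was also reduced, to 58.2% of its control mean (adjusted p = 0.0192, limma). All 7 markers of the early embryo looked up (among them Pou5f1, Nanog and Cdh1) reached 1 FPKM, and most of their sum came from Dppa3. Of 7 cumulus and granulosa cell markers and of 5 sperm markers, 0 reached 1 FPKM in any library. Of 5 markers of later trophectoderm, the keratin genes Krt8 and Krt18 did, whereas Cdx2 stood at no more than 0.341 FPKM and Elf5 was listed at 0 throughout.

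The table leaves the absolute depth unknown, so the error of each value is taken from the spread between libraries. The test covered genes that reached 1 FPKM in 4 or more libraries, 11422 in all, and 4 of the 5 genes were among them. Msn reached 1 FPKM in 1 library and was covered only by an alternative fit without the filter. Changes are differences of log2(FPKM + 1), which understate the change of low genes, and a change passed at an adjusted p under 0.05 over all genes tested.

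In control embryos radixin was the main ERM transcript by FPKM. FPKM is scaled to transcript length, and levels are set side by side here on that basis. The annotation behind the scaling is not given, and its part in the order of the genes was not tested. In the order A1, A2, B1, B2, used for all values that follow, the 4 control libraries held 11.7, 12.9, 13.8 and 10.9 FPKM of Rdx. Myo1c followed with 5.25, 4.86, 5.78 and 5.68 FPKM, and Ezr with 2.61, 3.52, 3.54 and 1.77 FPKM. Those 3 ranges did not overlap. Slc9a3r1 stood at 0.750, 0.955, 0.797 and 0.860 FPKM and Msn at 0.351, 0.645, 0.794 and 0.402 FPKM, and the ranges of these last 2 did overlap. Over all 16 libraries, the mean of Rdx lay above that of 59.8% of tested genes, the mean of Ezr above 48.5%, that of Myo1c above 35.6% and that of Slc9a3r1 above 8.09%.

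**Figure D1:**
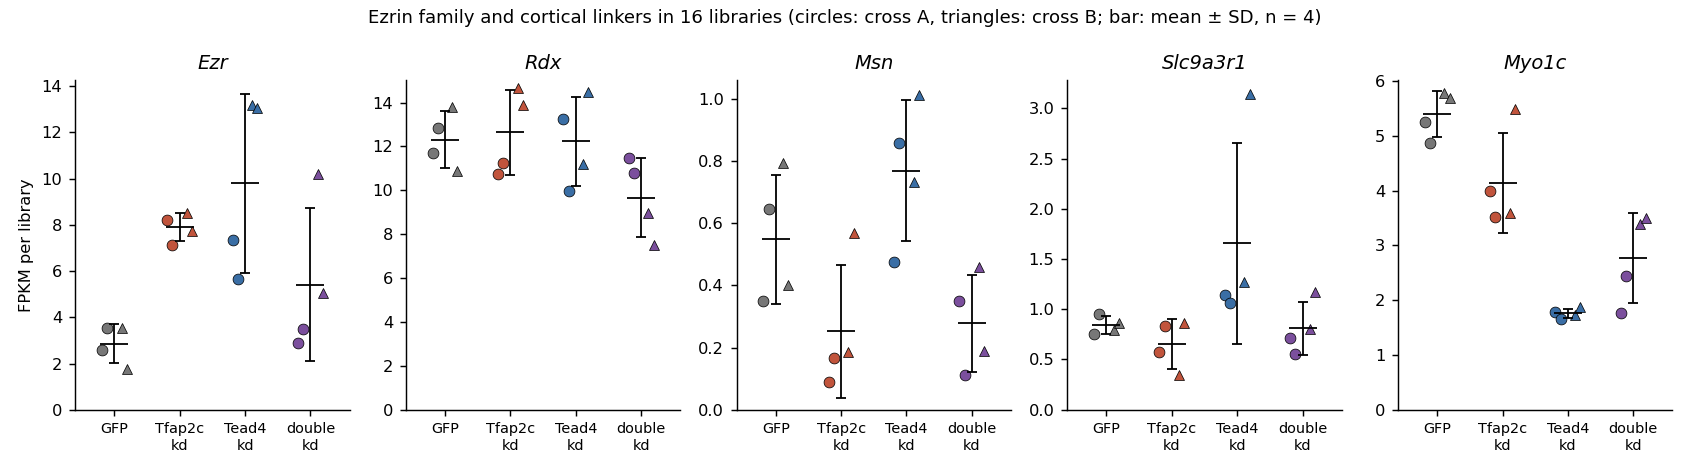
FPKM of the 5 genes in each library, by group (GFP control, Tfap2c knockdown, Tead4 knockdown and double knockdown), with circles for cross A, triangles for cross B and bars for mean ± SD (n = 4); each panel has its own axis from 0. Ezr lies above every control library in both single knockdowns, and Myo1c lies between 1.66 and 1.87 FPKM in the Tead4 knockdown.

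The order of the transcripts changed with the knockdowns. In the Tfap2c knockdown Ezr stood above Myo1c, with ranges of 7.13 to 8.53 and 3.53 to 5.48 FPKM that did not overlap. In the Tead4 knockdown the ranges of Ezr and Rdx overlapped, and so did those of Myo1c and Slc9a3r1. In the double knockdown Ezr overlapped with Rdx above it and with Myo1c below it. Ezr exceeded Rdx in 2 of the 16 libraries, Tead4 knockdown B1 and double knockdown B1.

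Each single knockdown asks whether the transcripts of these cortical linkers depend on the depleted factor at the stage when the apical domain forms. With Tfap2c dsRNA 1 of the 4 tested genes passed, Ezr upward, where 29.6% of all tested genes passed (16.3% higher and 13.2% lower). With Tead4 dsRNA 2 of 4 passed, Ezr upward and Myo1c downward, where 6.13% of all genes passed (3.35% higher and 2.78% lower). With both, 1 of 4 passed, Myo1c downward, where 25.1% of all genes passed (13.9% higher and 11.3% lower). These comparisons share their control libraries.

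Ezr rose in both single knockdowns. Tfap2c dsRNA brought it to 8.21, 7.13, 8.53 and 7.73 FPKM (mean 7.90 ± 0.610 FPKM, SD, n = 4). The lowest of these libraries was above the highest control library, and both crosses gave similar levels. Against the control mean of 2.86 ± 0.848 FPKM the ratio was 2.76, and the log2 change was 1.23 (SE 0.264, 95% interval 0.668 to 1.80, limma adjusted p = 0.00288). Because whole embryos were measured, a change in the number of cells that express a gene and a change in RNA per cell cannot be told apart.

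Tead4 dsRNA brought Ezr to 7.34, 5.64, 13.2 and 13.1 FPKM (mean 9.80 ± 3.89 FPKM). All 4 libraries were above every control library, and both cross B libraries were above both cross A libraries. The ratio to the control mean was 3.43 and the log2 change 1.44 (SE 0.264, 95% interval 0.874 to 2.00, limma adjusted p = 0.00447). Fitted within a cross, with 2 libraries a group, the change was 0.88 in cross A (adjusted p = 0.0737) and 1.99 in cross B (adjusted p = 0.0526). For the Tfap2c knockdown the same fits gave 1.10 in cross A (adjusted p = 0.0121) and 1.36 in cross B (adjusted p = 0.0283). The direct difference between both single knockdowns did not pass (log2 change -0.21, 95% interval -0.770 to 0.358, adjusted p = 0.609).

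With both factors depleted Ezr did not rise further. It stood at 2.89 and 3.49 FPKM in double knockdown A1 and A2, within the range of the controls, and at 10.2 and 5.07 FPKM in B1 and B2, above that range. The log2 change against the control was 0.63 (95% interval 0.0695 to 1.20, limma adjusted p = 0.0948), and it passed when GFP A2 was left out (0.81, adjusted p = 0.0475). Without double knockdown B1 it was 0.376 and without GFP B2 it was 0.388 (adjusted p = 0.298 in both). In cross A alone the change was 0.0487 (adjusted p = 0.905) and in cross B alone 1.22 (adjusted p = 0.0571).

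The double knockdown was therefore set against the sum of both single changes. A non-additive part below 0 means that the double knockdown lay lower than both single changes added up. For Ezr it was -2.04 on the log2 scale (SE 0.374, 95% interval -2.83 to -1.24, limma adjusted p = 0.0279), where 0.753% of all genes passed (0.385% higher and 0.368% lower). It was of like size in cross A (-1.93, adjusted p = 0.110) and in cross B (-2.14, adjusted p = 0.245). The call is narrow. It was lost without double knockdown A1, without any 1 of the Tfap2c knockdown libraries A1, A2, B1 and B2, without Tead4 knockdown A1, B1 or B2, and without GFP B2, with adjusted p from 0.0502 to 0.0708 and values from -2.13 to -1.79. It was also lost without the filter (adjusted p = 0.0805) and without the cross term (adjusted p = 0.110). Tead4 mRNA was lower in the Tfap2c knockdown too, as given above, so the single knockdowns were not separate. Its part in the Ezr values and in this sum was not tested.

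Against the Tead4 knockdown alone, Ezr was lower in the double knockdown by a log2 change of -0.80 (95% interval -1.37 to -0.240, limma adjusted p = 0.0386), and 23.7% of all genes passed in that comparison (10.9% higher and 12.9% lower). This call was lost without double knockdown A1, A2 or B2 or Tead4 knockdown A1, B1 or B2 (adjusted p from 0.0607 to 0.116), without the filter (0.0965) and without the cross term (0.0965). Against the Tfap2c knockdown alone, Ezr differed by -0.60 (95% interval -1.16 to -0.0343, adjusted p = 0.497). In that last comparison 0 of 4 genes passed in limma, 3 of 4 had an unadjusted p under 0.05, and 0.14% of all genes passed (0.035% higher and 0.105% lower).

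**Figure D2:**
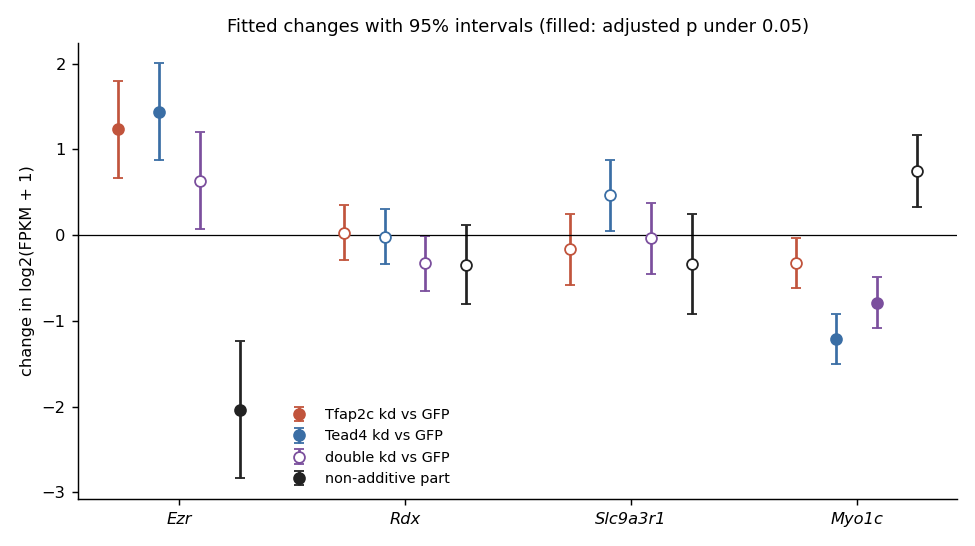
Fitted changes in log2(FPKM + 1) of the 4 tested genes for each knockdown against the GFP control and for the non-additive part of the double knockdown, with 95% intervals from limma; filled symbols passed at an adjusted p under 0.05. Ezr shows 2 filled rises near 1.23 and 1.44 and a filled non-additive part at -2.04, and Myo1c shows filled falls in the Tead4 and double knockdowns.

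Blood and oocyte marker sums lay above those of the control without overlap in the Tfap2c and double knockdowns. Both sums overlapped with the control in the Tead4 knockdown. Summed FPKM of 6 blood markers ran from 9.86 to 26.8 in the control, from 29.3 to 63.0 in the Tfap2c knockdown, from 20.3 to 50.9 in the Tead4 knockdown and from 40.7 to 77.7 in the double knockdown. This sum came almost wholly from the alpha-globin genes Hba-a1 and Hba-a2. Alas2 stood at no more than 0.565 FPKM, and Ptprc, Hbb-bs and Hbb-bt were listed at 0 in every library. Summed FPKM of 4 oocyte markers, mostly the zona gene Zp3, ran from 9.33 to 14.0 in the control, from 16.4 to 20.7 in the Tfap2c knockdown, from 12.7 to 37.1 in the Tead4 knockdown and from 17.8 to 27.1 in the double knockdown. The sum of the 7 early embryo markers was nearly all Dppa3 (5509 to 8679 FPKM), and no other gene of that list exceeded 63.5 FPKM. It therefore does not show the direction of the others, and the same holds for the blood and oocyte sums. The early embryo sum ran from 7964 to 8933 FPKM in the control. It was lower with Tfap2c dsRNA (5629 to 6902) and with both (5928 to 7204). With Tead4 dsRNA (7656 to 8504) it overlapped with the control. The blood and oocyte sums were higher in the double knockdown than in the control without overlap. In that group Ezr overlapped with the control in cross A and lay above every control library in cross B. The part of these 3 marker lists in the Ezr values was not tested.

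Rdx, the most abundant of the family, did not pass in any comparison. Its values were 10.7, 11.3, 14.7 and 13.9 FPKM with Tfap2c dsRNA and 13.3, 9.99, 11.2 and 14.5 FPKM with Tead4 dsRNA. Both groups overlapped with the control on either side. The log2 changes were 0.0290 (95% interval -0.295 to 0.353, limma adjusted p = 0.913) and -0.0163 (95% interval -0.341 to 0.308, adjusted p = 0.974). The intervals leave room for changes of that width in either direction. With both dsRNAs Rdx stood at 11.5, 10.8, 8.95 and 7.49 FPKM, with 3 libraries below every control library (log2 change -0.33, 95% interval -0.654 to -0.00555, adjusted p = 0.130). Without double knockdown B2 the change was -0.212 (adjusted p = 0.340).

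Msn, which encodes moesin, was near the lower end of what the table lists. Its values were 0.0891, 0.168, 0.186 and 0.568 FPKM with Tfap2c dsRNA, where 3 of 4 libraries lay below every control library. With both dsRNAs they were 0.351, 0.113, 0.460 and 0.190 FPKM, where A2 and B2 lay below every control library and A1 was level with the lowest. With Tead4 dsRNA it stood at 0.476, 0.858, 0.732 and 1.01 FPKM, and 2 of 4 libraries lay above every control library. Exact two-sided permutation tests of 4 against 4 libraries gave p = 0.0857 for the Tfap2c knockdown, p = 0.171 for the Tead4 knockdown and p = 0.114 for the double knockdown. None of these p values was under 0.05, and the smallest possible in that test is 0.0286. The limma fit without the filter, over 25703 genes, gave Msn adjusted p from 0.159 to 0.601 against the control. In that fit Msn was lower with Tfap2c dsRNA than with Tead4 dsRNA (log2 change -0.50, adjusted p = 0.0213), where 12.6% of genes passed. It was also lower with both dsRNAs than with Tead4 dsRNA (-0.47, adjusted p = 0.0385), where 9.47% passed. The first of these pairs of groups overlapped and the other did not.

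Summed over Ezr, Rdx and Msn, the composition of ERM transcripts shifted with Ezr. In the control Ezr made up 17.8%, 20.7%, 19.5% and 13.6% of the summed FPKM. With Tfap2c dsRNA its share was 43.2%, 38.4%, 36.5% and 34.8%, and in the Tead4 knockdown it was 34.8%, 34.2%, 52.5% and 45.8%. Every library of the single knockdowns lay above every control library. With both dsRNAs the share was 19.7% and 24.3% in cross A and 52.0% and 39.8% in cross B, so that A1 lay among the controls. The summed level was 15.7 ± 2.30 FPKM in the control, 20.8 ± 2.37 in the Tfap2c knockdown, 22.8 ± 5.20 in the Tead4 knockdown and 15.4 ± 2.96 in the double knockdown. Msn made up at most 5.20% of the sum in any library. These shares follow from the values above and were not tested.

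**Figure D3:**
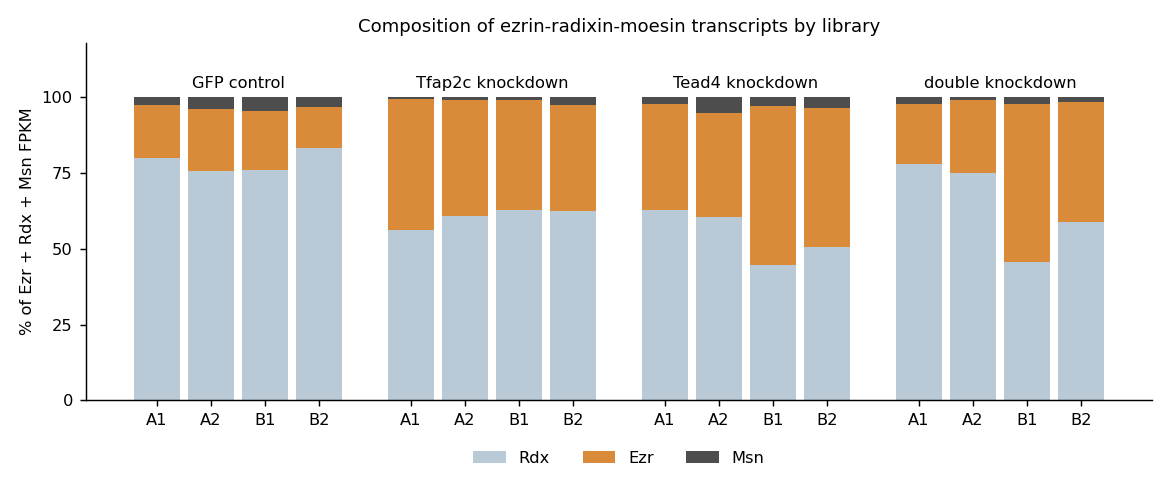
Share of Rdx, Ezr and Msn in their summed FPKM, as stacked bars in percent for each of the 16 libraries. The Ezr share is at most 20.7% in the control and at least 34.2% in every single-knockdown library, and in the double knockdown cross A is lower than cross B.

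The scaffold gene Slc9a3r1 stood higher in the Tead4 knockdown without passing the test. It stood at 1.15, 1.06, 1.27 and 3.14 FPKM there, and all 4 libraries were above every control library. The highest, B2, stood far from the rest. The mean was 1.66 ± 0.996 FPKM against 0.840 ± 0.0884 FPKM in the control (log2 change 0.47, 95% interval 0.0512 to 0.880, limma adjusted p = 0.179). Without Tead4 knockdown B2 the change was 0.24. Because the level is close to 1 FPKM, the added pseudocount shrinks this change, which was 0.76 with a pseudocount of 0.1. The gene reached 1 FPKM in 5 libraries, all 4 of the Tead4 knockdown and double knockdown B2. It thus met the filter only through the group where it was high.

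Slc9a3r1 stood at 0.571, 0.838, 0.343 and 0.868 FPKM with Tfap2c dsRNA and, with both dsRNAs, at 0.711, 0.550, 0.801 and 1.18 FPKM. Both groups overlapped with the control (log2 changes -0.16 and -0.0346, limma adjusted p = 0.570 and 0.920). Set directly against each other, the Tfap2c knockdown was lower than the Tead4 knockdown by a log2 change of -0.63 (95% interval -1.05 to -0.216, adjusted p = 0.0237). Slc9a3r1 was tested only because it was high in the Tead4 knockdown, so this p is not independent of the filter. In that comparison 2 of 4 genes passed, Slc9a3r1 and Myo1c, against 29% of all genes (13.8% higher and 15.2% lower). The Slc9a3r1 call was lost without Tfap2c knockdown B1 (-0.49, adjusted p = 0.0845) or Tead4 knockdown B2 (-0.41, adjusted p = 0.0749), without the filter (adjusted p = 0.0549) and with both groups fitted alone (adjusted p = 0.0902).

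Myo1c fell in the Tead4 knockdown. There it stood at 1.78, 1.66, 1.73 and 1.87 FPKM (mean 1.76 ± 0.0851 FPKM), or 32.6% of the control mean of 5.39 ± 0.422 FPKM. The 4 libraries were close to each other in both crosses and far below every control library. The log2 change was -1.21 (SE 0.139, 95% interval -1.51 to -0.914, limma adjusted p = 0.000122). Within cross A it was -1.15 (adjusted p = 0.0276) and within cross B -1.27 (adjusted p = 0.0524).

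With both dsRNAs Myo1c stood at 1.76, 2.44, 3.38 and 3.49 FPKM, again below every control library, and at 51.3% of the control mean. The log2 change was -0.79 (SE 0.139, 95% interval -1.08 to -0.492, limma adjusted p = 0.000838), with -0.97 in cross A (adjusted p = 0.0126) and -0.60 in cross B (adjusted p = 0.108). Both cross B libraries lay above both cross A libraries. The double knockdown was higher than the Tead4 knockdown by 0.42 (95% interval 0.126 to 0.719, adjusted p = 0.0385). Both Ezr and Myo1c, 2 of 4 genes, passed in that comparison, where 23.7% of all genes passed. The Myo1c call was lost without double knockdown A2, B1 or B2 or Tead4 knockdown A2, B1 or B2 (adjusted p from 0.0566 to 0.105). It was also lost with other filters (0.0588 without one and 0.0525 with a minimum of 5 FPKM), without the cross term (0.0991) and with both groups fitted alone (0.0846).

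With Tfap2c dsRNA alone Myo1c stood at 3.99, 3.53, 3.59 and 5.48 FPKM, or 76.9% of the control mean, and B2 lay within the control range. The log2 change of -0.33 (95% interval -0.622 to -0.0300) did not pass (limma adjusted p = 0.0913), but did after median-ratio rescaling (-0.38, adjusted p = 0.0492) and after quantile normalization (-0.40, adjusted p = 0.0367). Tead4 mRNA itself was lower in this group, as given above, and its part in the Myo1c values was not tested. The Tfap2c knockdown was above the Tead4 knockdown by 0.88 (95% interval 0.588 to 1.18, adjusted p = 0.000233), in every library. The non-additive part of Myo1c was 0.75 (95% interval 0.330 to 1.17, adjusted p = 0.101).

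Exact two-sided permutation tests of each gene in each knockdown against the control made 15 tests. The p was 0.0286, the smallest possible, for Ezr in both single knockdowns, for Myo1c in the Tead4 and double knockdowns and for Slc9a3r1 in the Tead4 knockdown. Adjusted over the 15 tests it was 0.0857 in each of the 5 cases, and 0 of the 15 passed by this test. With that smallest p, a test could pass only if many more of the 15 had also reached it. The count of 0 therefore does not decide whether single genes changed.

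The crosses were compared in every group together. Cross B stood above cross A by 0.45 for Ezr (95% interval 0.0490 to 0.846, limma adjusted p = 0.0783) and by 0.23 for Myo1c (95% interval 0.0203 to 0.439, adjusted p = 0.0851). Of 4 genes 0 passed and 2 had an unadjusted p under 0.05, against 33.5% of all genes that passed (17.2% higher and 16.3% lower). The control levels of Ezr did not order by cross, with means of 3.06 FPKM in A and 2.65 FPKM in B. Ezr passed without GFP A2 (0.54, adjusted p = 0.0412) or GFP B2 (0.57, adjusted p = 0.0186), and Myo1c without Tfap2c knockdown B1 (0.28, adjusted p = 0.0392).

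Whether a knockdown acted differently in both crosses was tested by an interaction term. The Ezr change was greater in cross B by 1.11 in the Tead4 knockdown (95% interval 0.224 to 2.00, unadjusted p = 0.0184, adjusted p = 0.646, limma) and by 1.17 in the double knockdown (95% interval 0.282 to 2.06, unadjusted p = 0.0142, adjusted p = 0.319). In the Tfap2c knockdown the difference was 0.26 (95% interval -0.623 to 1.15, adjusted p = 0.790). Of 12 such tests on the 4 genes 0 passed, 2 had an unadjusted p under 0.05, and 0% of all genes passed in each knockdown. A difference between crosses was thus not shown at this number of libraries.

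Among all tested genes, the 3 most like each of the 4 were found by Pearson's r of log2(FPKM + 1) over the 16 libraries, given without a test since the libraries share their groups and crosses. For Ezr these were Rnd1, which encodes a small GTPase (r = 0.866), 4732440D04Rik (0.831) and Fam174a (0.810). Rnd1 stood at 1.39 ± 0.337 FPKM in the control and at 2.04 ± 0.385, 3.37 ± 1.21 and 2.07 ± 0.974 FPKM in the Tfap2c, Tead4 and double knockdowns. For Myo1c they were the endocytic adaptor gene Dab2 (r = 0.931), 1810037I17Rik (0.902) and Tead4 itself (0.898), the target of the dsRNA. Dab2 stood at 72.9 ± 13.9 FPKM in the control and at 45.4 ± 11.4, 4.70 ± 3.70 and 16.8 ± 8.47 FPKM in the same order. For Slc9a3r1 they were the PDZ-domain gene Sdcbp2 (r = 0.919), the aldose reductase gene Akr1b3 (0.860) and the folate receptor gene Folr2 (0.847). In the Tead4 knockdown Sdcbp2 stood at 2.49 ± 2.78 FPKM (highest library 6.57), Akr1b3 at 19.6 ± 8.56 (highest 32.4) and Folr2 at 9.00 ± 2.53 FPKM. Slc9a3r1 itself had a library far from the rest in that group. The part of single libraries in these correlations was not tested. For Rdx they were Lcorl (r = 0.782), the nucleoporin gene Nup153 (0.765) and Rccd1 (0.745).

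Genes around the ERM proteins were read from 5 lists. Of 24 regulators of ERM activity (small GTPases, their kinases, lipid kinases and phosphatases) 16 were tested. In the Tfap2c knockdown 3 rose, 4 fell and 9 did not pass, with a median log2 change of 0.0489 beside 0.0606 over all genes tested, of which 16.3% rose and 13.2% fell. The 3 that rose were Rhoc, Arhgdia and Pip5k1a, which encodes a kinase that makes PIP2 (9.41 ± 2.23 to 16.6 ± 3.77 FPKM, limma adjusted p = 0.00375). The 4 that fell were Rock2, Plcg1, the Ste20-like kinase gene Stk24 (25.8 ± 2.05 to 13.7 ± 2.06 FPKM, adjusted p = 0.000195) and the atypical protein kinase C gene Prkcz (15.95 ± 1.92 to 8.07 ± 1.55 FPKM, adjusted p = 0.000645). With Tead4 dsRNA 1 rose and 0 fell, where 6.13% of all genes passed. It was Rhoa, at 205 ± 24.6 against 167 ± 18.6 FPKM (log2 change 0.29, adjusted p = 0.0369). That count of 1 became 0 without the filter, after median-ratio rescaling and without the cross term. With both dsRNAs 2 rose, Rhoc and Pip5k1a, and 3 fell, Stk24, Prkcz and Plcg1, where 25.1% of all genes passed. The rises numbered 1 without the filter or the cross term.

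Of 19 membrane partners of ERM proteins and of NHERF1, 7 were tested. In the Tfap2c knockdown 2 rose, 1 fell and 4 did not pass (median 0.16 beside 0.0606 over all genes, of which 29.6% passed). Pdpn, which encodes the ERM-binding glycoprotein podoplanin, rose from 52.1 ± 7.00 to 85.0 ± 9.37 FPKM (limma adjusted p = 0.00214), and the adhesion gene Icam1 from 2.99 ± 0.501 to 4.13 ± 0.946 FPKM (adjusted p = 0.0394). Of these 2 rises 1 passed after either rescaling, with the filter of 5 FPKM and without the cross term. The Crumbs gene Crb3 fell from 168 ± 16.9 to 106 ± 11.7 FPKM (adjusted p = 0.00181). With Tead4 dsRNA 0 of 7 passed in limma (median -0.12 beside 0.0536 over all genes, of which 6.13% passed). After median-ratio rescaling or quantile normalization 2 fell. With a pseudocount of 0.1 or the filter of 5 FPKM 1 fell, and without the filter 1 rose. Pdpn stood at 37.3 ± 9.54 FPKM (adjusted p = 0.0534) and Icam1 at 2.03 ± 0.519 FPKM (adjusted p = 0.0600), with unadjusted p of 0.00347 and 0.00441. With both dsRNAs Crb3 fell and 0 rose, where 25.1% of all genes passed. That fall did not pass without the filter or after quantile normalization.

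The FERM domain is shared with proteins of the 4.1 family, kindlins and several phosphatases. Of 28 such genes 18 were tested, and in the Tfap2c knockdown 3 rose and 3 fell (median -0.0191), a share near the 29.6% of all genes that passed. Epb41l5, which encodes a 4.1 protein that binds Crumbs, fell steeply in each knockdown, from 18.4 ± 4.34 FPKM in the control to 3.75 ± 1.43, 4.12 ± 1.81 and 2.66 ± 1.43 FPKM in the Tfap2c, Tead4 and double knockdowns (log2 changes -2.05, -1.96 and -2.46, limma adjusted p = 8.04e-05, 0.000675 and 2.41e-05). It was the 1 gene of this list that passed in the Tead4 knockdown, where 17 of 18 did not and 6.13% of all genes passed. After median-ratio rescaling or quantile normalization 2 fell. The phosphatase gene Ptpn21 rose with Tfap2c dsRNA (11.0 ± 1.94 to 20.3 ± 1.58 FPKM, adjusted p = 2.63e-05), as did Ptpn13 and Farp2, and the kindlin gene Fermt2 fell (36.6 ± 6.85 to 24.2 ± 2.67 FPKM, adjusted p = 0.0124), as did Ptpn3. Nf2, which encodes the ERM relative merlin, did not pass in any knockdown against the control, at 11.0 ± 2.84 FPKM in the control and 11.98 ± 1.39, 13.8 ± 4.31 and 9.25 ± 0.907 FPKM in the knockdowns, and was named after its values were seen. With both dsRNAs 2 rose, Ptpn21 and Ptpn13, and 3 fell, Epb41l5, Fermt2 and Frmd4b, a share near the 25.1% of all genes that passed. The rises numbered 1 with the filter of 5 FPKM or without the cross term.

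Among other class I myosin genes, Myo1g rose from 0.977 ± 0.382 to 2.72 ± 0.684 FPKM in the Tfap2c knockdown (limma adjusted p = 0.00226) and to 2.72 ± 0.599 FPKM in the double knockdown (adjusted p = 0.00251). In the Tead4 knockdown it stood at 1.63 ± 0.495 FPKM (adjusted p = 0.2199). Of all genes 29.6% passed in the Tfap2c knockdown, 25.1% in the double and 6.13% in the Tead4 knockdown. Myo1g is a gene of low level, and neither rise was counted with the filter of 5 FPKM.

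Of 21 genes of the microvillus core 12 were tested, and in the Tfap2c knockdown 2 rose and 3 fell (median -0.12), where 29.6% of all genes passed. With Tead4 dsRNA 1 rose and 1 fell (median -0.0768), where 6.13% of all genes passed. Without the cross term the falls numbered 1 and 0. The villin-like gene Vill rose in the Tfap2c knockdown and fell in the Tead4 knockdown, from 3.77 ± 1.52 FPKM in the control to 7.33 ± 1.23 FPKM (limma adjusted p = 0.0103) and 1.45 ± 0.884 FPKM (adjusted p = 0.0170). Baiap2, which encodes the membrane-curving protein IRSp53, went the opposite way in each, from 4.90 ± 0.509 to 2.49 ± 0.343 FPKM (adjusted p = 0.00508) and 9.77 ± 3.70 FPKM (adjusted p = 0.0140). The plastin gene Pls3 rose with Tfap2c dsRNA (8.70 ± 1.24 to 15.7 ± 1.66 FPKM, adjusted p = 0.0144), and Pls1 and Lcp1 fell. With both dsRNAs 0 rose and 2 fell, Baiap2 and Pls1, where 25.1% of all genes passed. Without the filter or the cross term 0 fell, and with the filter of 5 FPKM 1 fell. Genes in these lists other than the up to 3 that each list's rule gave were named after their values were seen.

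**Figure D4:**
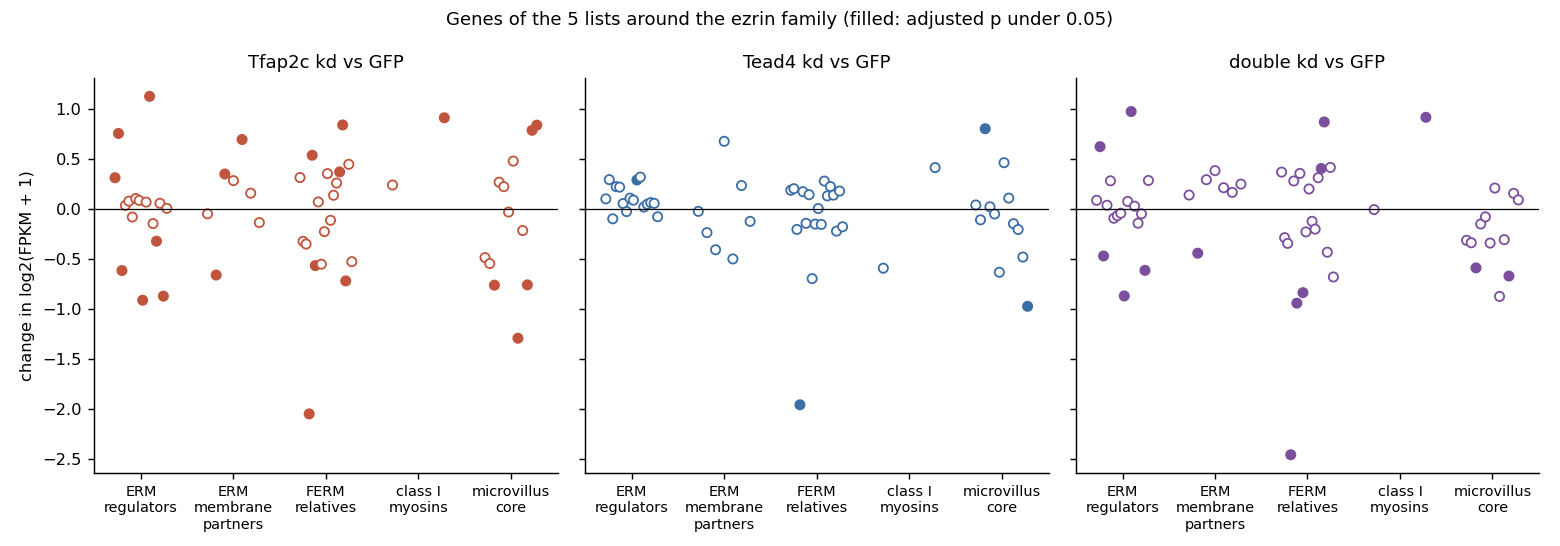
Changes in log2(FPKM + 1) against the GFP control for each tested gene of the 5 lists, in the Tfap2c, Tead4 and double knockdowns; filled symbols passed at an adjusted p under 0.05 and the horizontal line marks 0. Filled symbols lie on both sides of 0 in the Tfap2c and double knockdowns and are few in the Tead4 knockdown, and the lowest point in each panel is Epb41l5.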

How the data were processed

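The deposited table holds FPKM per gene and library, scaled to library size and transcript length by the authors. The submitters' processing notes name STAR, Cufflinks, Trim Galore, CASAVA and mm10. Roles, versions and annotation: not given in the sources used here. Of 43496 lines, 59 with a repeated identifier were summed, and 27 names turned into dates were restored. Columns were matched to libraries by title. FPKM sums ran from 799260 to 874436. Absolute depth is unknown, and relative depth, estimated from the steps of low values, ran from 0.874 to 1.12 of the mean (62.9% to 74.5% of ratios within 0.05 of whole steps).

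The log2(FPKM + 1) scale, computed here from the deposited FPKM, was fitted over all 16 libraries with limma 3.58.1 in R 4.3.3, with terms for group and cross and eBayes with a variance trend. P values were adjusted by Benjamini-Hochberg over 11422 genes and are two-sided. Interactions came from a group by cross fit. Exact permutation tests used scipy 1.17.1. Alternatives were another pseudocount, other filters, rescaling, quantile normalization, no cross term, a replicate block, both groups alone, no variance trend, single crosses and each library left out. The 5 genes, the lists and the comparisons were chosen with earlier results of these data known. All 5 genes are named throughout, as are the target genes, up to 3 passing genes a list by lowest p, and the 3 genes most like each. The Epb41 family was matched through older symbols. For Ppp1ca and Pdpn, each with a second identifier listed at 0, the first was used. One gene of the lists is not reported here.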

Additional observations from a re-analysis of the deposited data

Results flagged for a closer look

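Of 20 sets of 4 libraries (5 genes in 4 groups), 1 held a library far from the others. Slc9a3r1 stood at 3.14 FPKM in Tead4 knockdown B2, where the next highest library stood at 1.27 FPKM. Its gap to the next library, as a share of the group's range, exceeded Dixon's critical value, which chance passes in about 1 of 20 such sets. The non-additive part of Ezr in the double knockdown was -2.04 (limma adjusted p = 0.0279). This call was lost in 9 of 16 fits with 1 library left out, without the filter (adjusted p = 0.0805) and without the cross term (adjusted p = 0.110). Rdx moved in opposite directions in both crosses of the Tfap2c knockdown, where both cross A libraries lay below their control mean (mean log2 change -0.147) and both cross B libraries above theirs (0.205). The test of that difference did not pass (0.35, limma adjusted p = 0.492).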

How the results depend on the processing

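The rises of Ezr in both single knockdowns and the falls of Myo1c in the Tead4 and double knockdowns kept their direction and their call under each of 9 other settings and with each of the 16 libraries left out. With a single cross, 2 libraries a group, all kept their direction, but Ezr with Tead4 dsRNA did not pass in either cross and both Myo1c falls did not pass in cross B. Counts of genes called are out of 4, or of all 5 without the filter, and leave out Slc9a3r1 with the filter of 5 FPKM. They changed as follows, and the cause was not tested. For the Tfap2c knockdown against the control the count was 2 after either rescaling. For the double against the Tead4 knockdown it was 1 without the filter (Msn, with Ezr and Myo1c lost), 1 with the filter of 5 FPKM, with the replicate block and with both groups alone, and 0 without the cross term. For the Tfap2c against the Tead4 knockdown it was 1 with the filter of 5 FPKM, which removed Slc9a3r1, and with both groups alone. Without the filter it was 2, with Msn in place of Slc9a3r1. For the non-additive part it was 0 without the filter and without the cross term. With 1 library left out the counts ran from 1 to 2 for the double knockdown against the control and for the Tfap2c against the Tead4 knockdown, from 0 to 2 for the double against the Tead4 knockdown, and from 0 to 1 for the non-additive part and for the crosses.

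Changes that had not passed and whose sign flipped were those of Rdx, Slc9a3r1 and Ezr. Not all were near 0 in the main fit. Rdx stood at -0.359 for the double against the Tfap2c knockdown and at -0.343 for the non-additive part. Ezr stood at -0.206 for the Tfap2c against the Tead4 knockdown. Rdx gave -0.0306 in the Tfap2c knockdown after median-ratio rescaling and -0.00802 between crosses after quantile normalization. In cross A alone Rdx gave -0.147 in the Tfap2c knockdown, 0.0150 for the double against the Tfap2c knockdown, -0.0629 for the Tfap2c against the Tead4 knockdown and 0.0994 for the non-additive part. In cross A alone Slc9a3r1 gave -0.0615 for the double against the Tfap2c knockdown and Ezr 0.218 for the Tfap2c against the Tead4 knockdown. In cross B alone Rdx gave 0.0517 in the Tead4 knockdown and Slc9a3r1 0.115 in the double knockdown. With 1 library left out Rdx ran from -0.0445 to 0.101 in the Tfap2c knockdown, from -0.0991 to 0.0728 in the Tead4 knockdown, from -0.0438 to 0.128 between both and from -0.0238 to 0.0797 between crosses. Slc9a3r1 ran from -0.103 to 0.0296 in the double knockdown and from -0.00703 to 0.222 for the double against the Tfap2c knockdown.

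Labels A1 to B2 recur in each group but do not state a pairing. Deviations from group means of libraries with the same label correlated across genes at 0.0321 to 0.308, and for 7 of 16 libraries the best match in another group had the same label, against 16 of 16 for the same cross. From group and cross means the correlations ran from -0.165 to 0.176. With the replicate block the change of Myo1c between the double and the Tead4 knockdown did not pass (0.42, adjusted p = 0.0533). Under that block the regulators that rose with Tead4 dsRNA numbered 0, the membrane partners that rose with Tfap2c dsRNA 1 and the microvillus genes that fell with both dsRNAs 1. Of 210 list counts recomputed, 177 stayed within 1.5 times. Slc9a3r1 and Msn, near or below 1 FPKM, are limited by depth, which is unknown.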
